A study of Mus musculus with 19 samples.

Results

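The genes described here are 10 members of the integrated stress response and of the unfolded protein response of the endoplasmic reticulum (ER): Atf4, Ddit3, Trib3, Asns, Chac1, Xbp1, Hspa5, Dnajb9, Herpud1 and Sesn2. They were chosen by name, with earlier results of these data known. Among the 13549 genes of the embryonic liver table, 9 were members, and Chac1 was not in that table. In the tumour files all 10 were found among 17606 genes. Livers were taken from mouse embryos at embryonic day 18.5 for RNA sequencing, 5 labelled control and 4 that overexpressed DNAJB1-PKA, the fusion kinase of human fibrolamellar carcinoma (FLC), a liver cancer. The fusion embryos carried a DNAJB1-PRKACA-GFP cDNA in the Rosa26 locus behind a stop cassette that Alb-Cre removes in cells with an active Albumin promoter, from mid-gestation on, so that other cells of the liver are not meant to express it. The labels do not say whether control embryos carried Cre or the transgene. The second experiment used FL8, a single cell line, set in gelatin capsules and grown in the flanks of NSG mice, which lack lymphocytes and keep their own myeloid cells, vessels and stroma. When tumours averaged 75 mm3, mice were randomized to 0.5% methocel vehicle (5 tumours) or to palbociclib (5 tumours), which inhibits the cyclin-dependent kinases CDK4 and CDK6 of the cell cycle, by gavage of 75 mg/kg on 3 days followed by 4 days without treatment. The labels do not state litters, or that each tumour came from a mouse of its own, so p-values measure the spread between these samples.

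Cells that run short of amino acids or fill their ER with unfolded protein phosphorylate a translation initiation factor; general protein synthesis then falls while the mRNA of Atf4 is translated more, and ATF4 protein induces genes of amino acid supply, among them Asns, and genes of the stress outcome such as Ddit3 (CHOP), Trib3 and Chac1. In parallel the ER sensors IRE1 and ATF6 act through spliced Xbp1 and cleaved ATF6 on chaperones such as Hspa5 (BiP) and on genes of ER-associated degradation such as Herpud1. In liver, a tissue that secretes most plasma proteins, this pathway also works at rest. Gene-level values cannot show Xbp1 splicing, sensor phosphorylation or the translation of Atf4, so every value below is a level of mRNA only.

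The bases before the transcription start show which of these genes carry the classical stress elements, and are given here for Hspa5, Dnajb9, Asns, Herpud1 and Trib3. RefSeq promoter sequences (GRCm38.p6) matched all 10 members, and the 250 bases before each start were searched on both strands. The ER stress element ERSE (CCAAT and CCACG with any 9 bases between them) was in 0.113% of 32851 promoter windows and in 1 member, Hspa5. The element ERSE-II (ATTGG and CCACG with 1 base between them) was in 0.0304% of windows and in 1 member, Herpud1. The ATF4 and C/EBP response element, searched as TGATGNAA, was in 3.45% of windows and in 3 members, Chac1, Asns and Herpud1. The letters CCACG, which also lie inside both ER stress elements, were in 28.3% of windows and in 7 members, all except Trib3, Ddit3 and Xbp1. The core TGACGTGG of the unfolded protein response element (0.563% of windows) and the full cAMP response element TGACGTCA (1.55%) matched no member. In the lines below capitals mark these matches. Exons of the GENCODE annotation, whose starts lie further upstream, cover 120 of the 250 bases of the Hspa5 window, 45 of the Asns window and all 250 of the Dnajb9 window. The stretches printed for these genes lie in those exons, so in that annotation they are transcribed and not upstream of the start, and only short stretches round the matches are shown. Hspa5 is shown for its ERSE (chr2:34772020-34772048, + strand, 70 to 42 bases before the start). Dnajb9 is shown for its pair of CCACG matches (chr12:44210162-44210186 and chr12:44210069-44210093, - strand). Asns is shown for the ATF4 element (chr6:7693215-7693242, - strand). Herpud1 (chr8:94386179-94386428, + strand) is shown for the window with the most kinds of match among the members, and Trib3 (chr2:152344061-152344310, - strand) for a window with none.
Hspa5: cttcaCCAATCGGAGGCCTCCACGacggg
Dnajb9, distal: caacagttttCCACGtgcgcgtagg
Dnajb9, proximal: gtcgcgccagCCACGggctcccgcc
Asns: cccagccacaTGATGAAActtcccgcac
Herpud1: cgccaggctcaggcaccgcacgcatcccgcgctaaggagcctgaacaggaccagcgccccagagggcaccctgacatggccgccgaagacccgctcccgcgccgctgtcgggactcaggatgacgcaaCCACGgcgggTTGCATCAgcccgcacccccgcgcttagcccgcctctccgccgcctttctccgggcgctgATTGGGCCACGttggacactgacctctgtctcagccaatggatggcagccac
Trib3: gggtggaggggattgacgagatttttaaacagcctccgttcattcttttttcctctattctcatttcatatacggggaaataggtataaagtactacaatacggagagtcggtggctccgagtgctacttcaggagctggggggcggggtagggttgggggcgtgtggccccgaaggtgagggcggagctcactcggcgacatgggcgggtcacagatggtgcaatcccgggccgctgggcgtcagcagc
A match says only that these letters are present in the window, and the absence of a match says nothing about which factor binds there.

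Libraries held 7660736 to 45591301 counts in the embryos and 2955729 to 43141761 reads in the tumours. The hepatocyte marker list summed to 90180 to 137395 CPM (counts per 1000000) in control and 72261 to 124240 CPM in fusion livers, and to 38658 to 125519 CPM in the tumours, so all libraries carried the hepatocyte markers. Prkaca, whose sequence the transgene shares, ranged from 36.3 to 50.5 CPM in control livers and from 52.0 to 114 CPM in fusion livers. Embryo libraries differed in the share of counts on ribosomal protein genes: 4 of them (controls 1 and 2 with fusions 8 and 9) had 9.73% to 10.1% there, while the 5 others had 6.19% to 7.88%. Xist marked control 1, control 2, fusion 6, fusion 7 and fusion 8 as female; among the 5 libraries of lower ribosomal share, sex and genotype therefore cannot be told apart. Among the tumours, 46.6% of the reads of vehicle 1 were mitochondrial, against 1.24% to 6.47% in the other 9, and vehicle 5 was the shallowest library.

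The first comparison asked how these stress genes differ in the liver when the fusion kinase is expressed. Dnajb9, a co-chaperone of the ER, rose 1.56-fold in fusion livers, and the ATF4 target Trib3 fell to 0.527 of its control level. The other 7 members, Atf4 and Ddit3 among them, did not pass the test. That is 1 member higher and 1 lower at an adjusted p under 0.05 (edgeR quasi-likelihood test, two-sided, adjusted over 13316 genes), where 12.8% of all genes tested passed, 5.99% higher and 6.81% lower. At an unadjusted p under 0.05 there were 4 of the 9, against 29.3% of all genes. The median log2 fold change was 0.17 over the members and -0.01 over all genes. In 3 members, Dnajb9, Xbp1 and Trib3, the values of the 2 groups did not overlap, as was the case for 16.5% of all genes (8.37% with fusion livers higher and 8.15% with them lower).

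**Figure D1:**
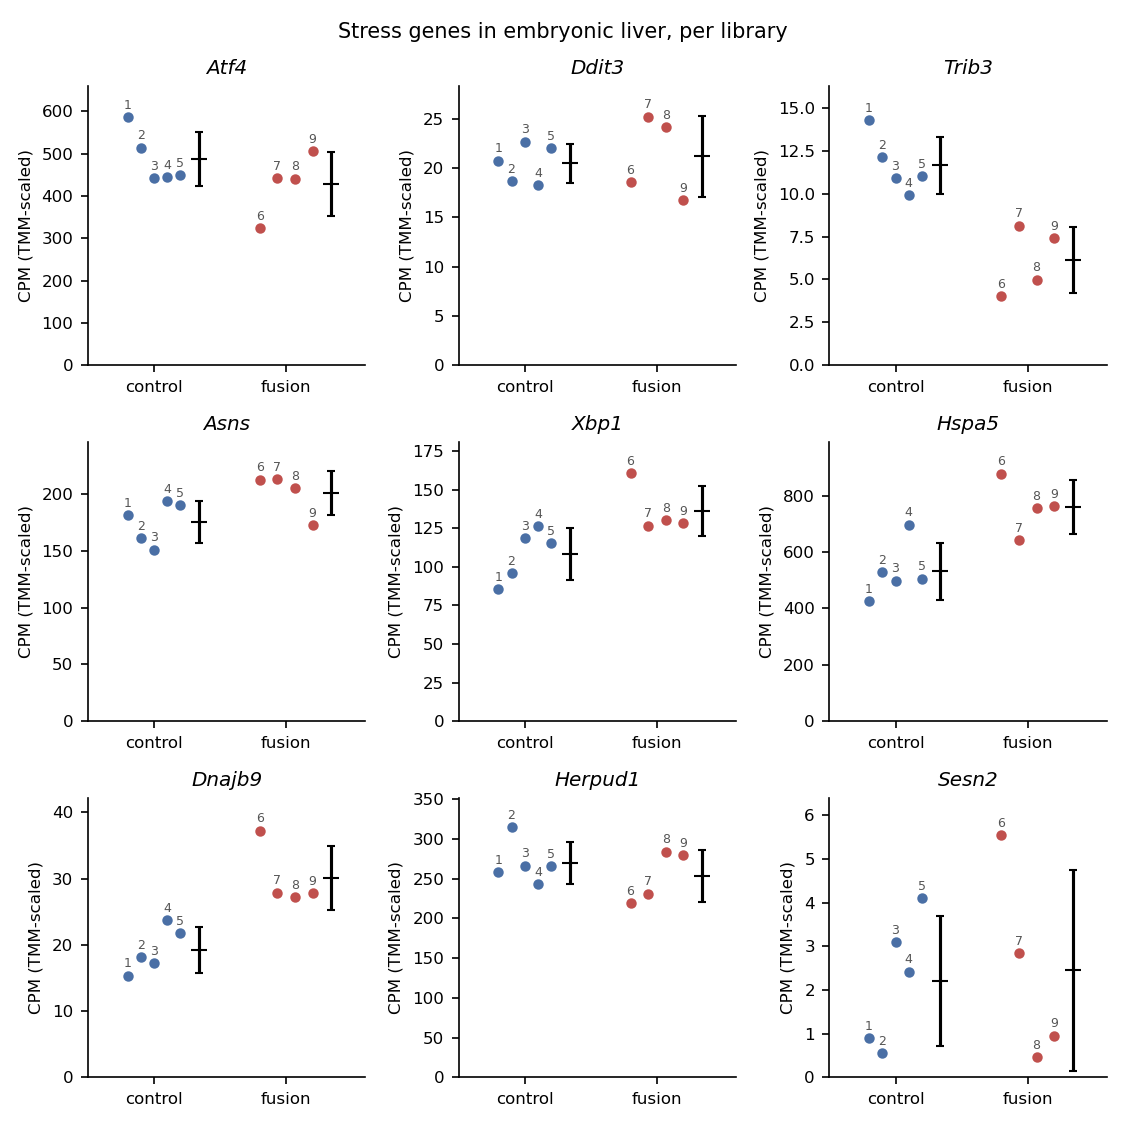
Levels of the 9 members in each embryonic liver, in CPM after scaling for library composition (TMM), with control libraries 1 to 5 in blue and fusion libraries 6 to 9 in red. Black bars are the mean ± SD of a group. Every fusion value of Dnajb9 lies above every control value, every fusion value of Trib3 lies below, and Sesn2 splits within both groups.

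Hspa5 encodes BiP, the main ATP-driven chaperone of the ER lumen, which also holds the stress sensors inactive (chr2:34771970-34777547). It stood at 426, 529, 499, 697 and 506 CPM in control 1 to 5 and at 877, 642, 755 and 763 CPM in fusion 6 to 9. Only control 4 reached into the fusion range, above fusion 7. Means were 531 ± 100.3 CPM in control (SD, n = 5) and 759 ± 96.0 CPM in fusion livers (SD, n = 4). The log2 fold change was 0.52 ± 0.16 (SE, 95% interval 0.16 to 0.87). With edgeR's quasi-likelihood test the adjusted p was 0.0605, which missed the threshold. DESeq2 gave the same size, 0.52, with an adjusted p of 0.0111 and called 18.4% of all genes. Within the 4 libraries of higher ribosomal share the edgeR value was 0.68 (adjusted p = 0.0163, where 20% of genes passed), and within the other 5 it was 0.42 (adjusted p = 0.131, where 21.8% passed). With the set of libraries as a covariate it was 0.53 (adjusted p = 0.0103, where 32.6% passed).

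Dnajb9 (ERdj4) is a DnaJ co-chaperone of BiP in the ER lumen and takes part in the disposal of misfolded proteins (chr12:44205559-44210326). The microRNA gene Mir5627 overlaps the Dnajb9 gene on the opposite strand. As the strand setting of the counting is not given, reads of the overlap cannot be assigned to either. Control livers held 15.3, 18.1, 17.3, 23.7 and 21.8 CPM and fusion livers 37.2, 27.9, 27.2 and 27.9 CPM. All 4 fusion livers were above all 5 controls, with fusion 6, the deepest library, standing highest. Means were 19.2 ± 3.42 CPM in control (SD, n = 5) and 30.0 ± 4.81 CPM in fusion livers (SD, n = 4). In edgeR the log2 fold change was 0.64 ± 0.15 (SE), with an adjusted p of 0.0200. The size was 0.74 within the libraries of higher ribosomal share (adjusted p = 0.0133) and 0.65 within the others (adjusted p = 0.0205). Without fusion 6 it was 0.53 with an adjusted p of 0.0556, and without control 3 it was 0.62 with an adjusted p of 0.0564, so that the call was lost in each case.

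Herpud1, a membrane protein that helps to assemble the ubiquitin ligase complex of ER-associated degradation, carries the ERSE-II printed above (chr8:94386438-94395377). Its levels were 258, 315, 266, 243 and 266 CPM in control livers and 219, 231, 284 and 279 CPM in fusion livers. The groups overlapped throughout, and the log2 fold change was -0.09 ± 0.13 (SE, 95% interval -0.38 to 0.20, adjusted p = 0.694 in edgeR). A fall or a rise of this gene within that interval is not excluded by these 9 livers. An antisense gene, Gm15890, overlaps Herpud1, and the strand setting of the counting is not given in the sources used here, so reads of the 2 genes may be mixed.

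Xbp1 encodes the transcription factor that IRE1 activates by splicing its mRNA (chr11:5520659-5525893). Control livers had 85.7, 95.9, 119, 126 and 115 CPM and fusion livers 161, 127, 130.3 and 128 CPM. Fusion livers were all higher, but the highest control (126.49 CPM) and the lowest fusion value (126.56 CPM) nearly touched. The log2 fold change was 0.33 ± 0.14 (SE, 95% interval 0.02 to 0.64), and the adjusted p of 0.150 in edgeR missed the threshold. Within the libraries of higher ribosomal share the value was 0.52 (adjusted p = 0.0263), and within the others 0.26 (adjusted p = 0.171).

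Atf4 encodes the transcription factor at the centre of the integrated stress response and is regulated mainly by translation (chr15:80255184-80257541). It was at 586, 514, 442, 444 and 449 CPM in control and at 323, 441, 441 and 505 CPM in fusion livers. Fusion 6 was the lowest of all and control 1 the highest, and the other 7 livers lay between 441 and 514 CPM. The log2 fold change was -0.19 ± 0.16 (SE, 95% interval -0.54 to 0.16, adjusted p = 0.472 in edgeR).

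Ddit3 (CHOP), a transcription factor that ATF4 induces under prolonged stress and that promotes cell death, lay at low and even levels (chr10:127290774-127296288). Controls had 20.7, 18.7, 22.7, 18.2 and 22.0 CPM and fusion livers 18.6, 25.2, 24.1 and 16.8 CPM. The highest and the lowest of the 9 values were both from fusion livers. The log2 fold change was 0.04 ± 0.14 (SE, 95% interval -0.27 to 0.36, adjusted p = 0.873 in edgeR). Ddit3 overlaps Gm4189 and Mars on the opposite strand and a second gene model of the same name, which makes its counts uncertain.

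Trib3 encodes a pseudokinase that ATF4 and CHOP induce and that feeds back on both (chr2:152337422-152344032). Control livers held 14.3, 12.1, 10.9, 9.90 and 10.997 CPM and fusion livers 4.02, 8.13, 4.98 and 7.39 CPM. All 4 fusion livers were below all 5 controls, with fusion 6 and fusion 8 the lowest. Means were 11.6 ± 1.67 CPM in control (SD, n = 5) and 6.13 ± 1.94 CPM in fusion livers (SD, n = 4). In edgeR the log2 fold change was -0.93 ± 0.22 (SE), with an adjusted p of 0.0172. The value was -1.09 within the libraries of higher ribosomal share (adjusted p = 0.0117) and -0.88 within the others (adjusted p = 0.0358). Leaving out fusion 8 gave -0.85 with an adjusted p of 0.0548. Counts behind these levels ran from 65 in fusion 8 to 252 in control 5.

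Asns encodes asparagine synthetase, whose promoter holds the ATF4 element shown above (chr6:7675169-7693254). Its levels were 181, 161, 151, 193 and 189.6 CPM in control and 212, 212, 205 and 172 CPM in fusion livers. Fusion 6, 7 and 8 stood above all controls and fusion 9 among them, and the log2 fold change was 0.19 ± 0.13 (SE, 95% interval -0.08 to 0.47, adjusted p = 0.333 in edgeR). Asns and Trib3, both ATF4 targets, thus had fold changes of opposite sign, of which that of Trib3 passed the test.

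Sesn2, a sestrin that restrains growth signalling through mTORC1 when leucine is scarce, was the lowest member (chr4:132492032-132510501). It was at 0.892, 0.558, 3.10, 2.42 and 4.102 CPM in control and at 5.55, 2.85, 0.460 and 0.958 CPM in fusion livers. The low values, 0.460 to 0.958 CPM from 4 to 15 counts, were those of the 4 libraries of higher ribosomal share, 2 in each genotype, and the other 5 libraries had 2.42 to 5.55 CPM from 48 to 266 counts. Genotype gave a log2 fold change of 0.17 ± 0.63 (SE, 95% interval -1.20 to 1.54, adjusted p = 0.890 in edgeR). A 2-fold difference in either direction is not excluded by this interval. The same 4 libraries had the highest haematopoietic marker sums, 2738 to 3180 CPM against 2156 to 2570 CPM in the other 5. Their hepatocyte marker sums were the lowest, 72261 to 96506 CPM against 102449 to 137395 CPM. Whether the ribosomal share or the cell content that these markers stand for has a part in the Sesn2 split was not tested. Atf4 and Herpud1 leaned the other way across the same libraries, at 441 to 586 CPM and 258 to 315 CPM where the share was high and at 323 to 449 CPM and 219 to 266 CPM where it was low.

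**Figure D2:**
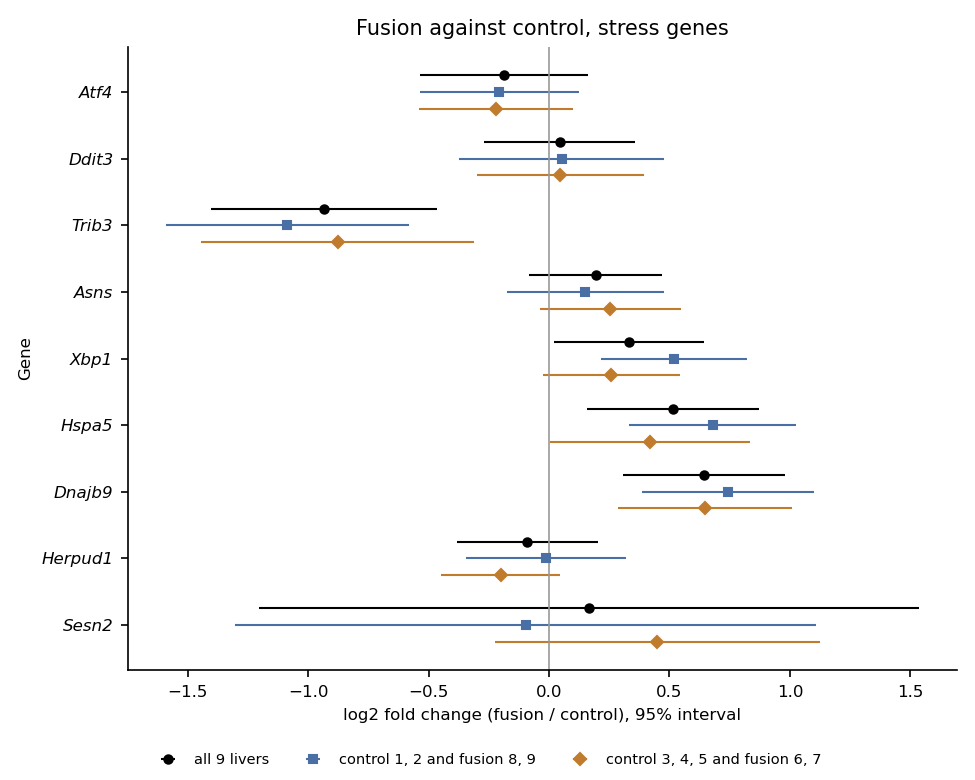
Log2 fold change (fusion over control) of each member with its 95% interval from edgeR, in all 9 livers (black), in the 4 libraries with a higher ribosomal protein share (blue) and in the other 5 (orange). Trib3 lies below 0 and Dnajb9 and Hspa5 above 0 in all 3 fits, while the intervals of Atf4, Ddit3, Asns, Herpud1 and Sesn2 include 0 in each.

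Per base of exon, the order of the members' mRNA levels was the same in both genotypes. On the scale of RPKM (reads per kilobase and per 1000000 reads, over the joined exons of each gene in GENCODE), control livers had 206 ± 26.8 for Atf4, 126 ± 23.7 for Hspa5, 116 ± 11.5 for Herpud1, 64.0 ± 6.76 for Asns and 33.4 ± 5.21 for Xbp1 (SD, n = 5). Ddit3 was at 11.95 ± 1.15, Dnajb9 at 7.55 ± 1.34, Trib3 at 5.48 ± 0.784 and Sesn2 at 0.638 ± 0.429. The ranges of Hspa5 and Herpud1 and those of Dnajb9 and Trib3 overlapped, and no other neighbours in this order did. In fusion livers Atf4 (181 ± 32.2) and Hspa5 (180 ± 22.7, SD, n = 4; 179.5 before rounding) had overlapping ranges, as did Ddit3 (12.4 ± 2.42) and Dnajb9 (11.8 ± 1.89). Trib3, at 2.89 ± 0.915, stood apart below them.

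Upstream of the members stand the stress kinases, the eIF2 phosphatase subunits and the ER sensors. Over 17 such genes tested the median log2 fold change was 0.15. Of these 1 was higher, none was lower and 16 did not pass, where 12.8% of all genes passed. The 1 was Eif2ak3 (PERK), the ER kinase that leads to ATF4, at 6.48, 4.32, 8.70, 13.2 and 10.8 CPM in control and 26.6, 15.4, 14.4 and 13.6 CPM in fusion livers. The groups did not overlap, with a log2 fold change of 0.99 ± 0.29 (SE, adjusted p = 0.0479 in edgeR), but the call was lost when any 1 of 7 livers was left out. The level was highest in fusion 6.

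Among 9 transcription partners of ATF4 and feedback genes, 2 were lower, none was higher and 7 did not pass, where 12.8% of all genes passed. The median was -0.25. With the set of libraries as a covariate 3 of the 9 were higher and 3 lower, where 32.6% of all genes passed. Atf5, a close relative of ATF4 under similar translational control, was at 808, 650.3, 954, 857 and 936 CPM in control and 409.7, 471, 350.5 and 439 CPM in fusion livers. The highest fusion liver was thus well below the lowest control (log2 fold change -1.01 ± 0.16, SE, adjusted p = 0.00254 in edgeR). Eif4ebp1, the translation repressor 4E-BP1, fell by 0.82 on the log2 scale from 157 ± 17.3 to 88.6 ± 17.1 CPM (SD; adjusted p = 0.00547 in edgeR). Both calls held in all 9 fits that left out 1 liver.

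Genes of amino acid transport and synthesis and of one-carbon metabolism divided: of 20 tested, 4 were higher, 5 lower and 11 did not pass, where 12.8% of all genes passed, and the median was -0.06. Got1, the cytosolic aspartate aminotransferase, rose most, from 76.2 ± 6.17 CPM to 1066 ± 264 CPM (SD), a log2 fold change of 3.81 ± 0.18 (SE, adjusted p = 2.3e-06 in edgeR). Its control livers lay between 71.0 and 85.7 CPM and its fusion livers between 779 and 1418 CPM. Cth, the cystathionine gamma-lyase of cysteine synthesis, rose 3.08-fold (adjusted p = 0.00739) and Slc38a2, the amino acid transporter SNAT2, rose 1.80-fold (adjusted p = 0.00547), both in edgeR. Lower in fusion livers were Aldh1l2, a mitochondrial folate enzyme, from 3.73 ± 0.772 to 1.12 ± 0.378 CPM (SD; log2 fold change -1.73, adjusted p = 0.00216 in edgeR), and the neutral amino acid transporter gene Slc1a4, from 64.0 ± 4.62 to 38.8 ± 6.44 CPM (log2 fold change -0.72, adjusted p = 0.00484). Slc7a3, a cationic amino acid transporter gene near 1 CPM in controls, was also lower (log2 fold change -1.32, adjusted p = 0.0150 in edgeR), a call that was lost without fusion 6. Got1 and Cth also belong to liver metabolism outside the stress response, Got1 to the malate-aspartate shuttle and to glucose synthesis.

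Of the 14 tRNA synthetase genes that ATF4 can induce, 1 was higher and 13 did not pass (median 0.08), where 12.8% of all genes passed. The 1 was Eprs, the glutamyl-prolyl-tRNA synthetase, at 112 ± 10.4 CPM in control and 154 ± 12.4 CPM in fusion livers (SD; adjusted p = 0.0267 in edgeR), a call lost without control 3, fusion 6 or fusion 7. Among secreted targets, 4 of 5 were tested, and 1 was higher and 1 lower, where 5.99% of all genes were higher and 6.81% lower. Fgf21 was left out by the filter on low counts, at 0.205 to 1.39 CPM in control and 0 CPM in every fusion liver. DESeq2, run without that filter, tested all 5 and called 1 higher and 2 lower, where 18.4% of all genes passed. Gdf15, a stress hormone that acts on the brainstem, was at 2.97, 3.76, 3.39, 2.01 and 3.53 CPM in control and 6.23, 6.88, 12.9 and 6.78 CPM in fusion livers (log2 fold change 1.39 ± 0.26, SE, adjusted p = 0.00595). Adm2, a vasoactive peptide of the adrenomedullin family, went the other way, from 24.4, 18.3, 13.2, 13.3 and 12.6 CPM to 1.94, 5.58, 2.38 and 5.06 CPM (log2 fold change -2.15 ± 0.34, SE, adjusted p = 0.00267). Neither gene's groups overlapped, and both calls held in all 9 fits that left out 1 liver.

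Downstream in the ER, of 20 chaperone and folding genes tested 3 were higher, none was lower and 17 did not pass, where 12.8% of all genes passed, with a median of 0.16. With the set of libraries as a covariate 7 of the 20 were higher and 2 lower, where 32.6% of all genes passed. Dnajb11 (ERdj3), a secreted co-chaperone of BiP, stood at 72.0, 69.6, 64.5, 77.2 and 64.8 CPM in control and at 116, 104, 118 and 111 CPM in fusion livers. Its groups were far apart relative to their spread, with a log2 fold change of 0.69 ± 0.10 (SE, adjusted p = 0.00222 in edgeR), and the call held whichever liver was left out. Creld2 (log2 fold change 0.44, adjusted p = 0.0325) and Hspa13 (0.61, adjusted p = 0.0382) were called in edgeR with all 9 livers, but each in only 2 of the 9 fits that left out 1. Hsp90b1 (GRP94), at 1263 ± 328 CPM in control and 1487 ± 238 CPM in fusion livers (SD), did not pass in edgeR (adjusted p = 0.476). Nor did Calr at 757 ± 84.6 and 804 ± 119 CPM (adjusted p = 0.743) or Pdia4 at 118 ± 30.8 and 125 ± 15.3 CPM (adjusted p = 0.809). Lower on average in fusion livers, and also not passing in edgeR, were P4hb at 1604 ± 204 and 1379 ± 163 CPM (adjusted p = 0.372), Pdia3 at 740 ± 70.5 and 607 ± 96.2 CPM (adjusted p = 0.219) and Pdia6 at 572 ± 130 and 549 ± 139 CPM (adjusted p = 0.880). All of these were named after their values were seen. Of the 20 genes, 13 had a positive log2 fold change.

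In ER-associated degradation, of 18 genes tested 2 were higher, 1 was lower and 15 did not pass (median 0.10), where 12.8% of all genes passed. Derl3, a derlin of the export channel, was at 0.697 to 0.941 CPM in control and at 1.37 to 2.73 CPM in fusion livers (log2 fold change 1.22, adjusted p = 0.0143 in edgeR). The mannosidase-like lectin genes differed in sign: Edem3 rose by 0.61 (adjusted p = 0.0253) and Edem2 fell by 0.95 on the log2 scale (adjusted p = 0.0145). The call of Edem3 was lost without control 3, fusion 6 or fusion 8, while those of Derl3 and Edem2 held in all 9 such fits. Of 18 genes of ER translocation and export, 2 were higher and 16 did not pass (median 0.08), against the same 12.8% of all genes. Sec23b, a coat protein of ER export vesicles, went from 37.6 ± 2.07 to 50.7 ± 4.74 CPM (SD; adjusted p = 0.0187 in edgeR) and Srprb, a subunit of the signal recognition particle receptor, from 22.5 ± 3.88 to 32.2 ± 4.58 CPM (adjusted p = 0.0405). The call of Sec23b was lost without fusion 9, and Srprb was called in 2 of the 9 fits that left out 1 liver.

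**Figure D3:**
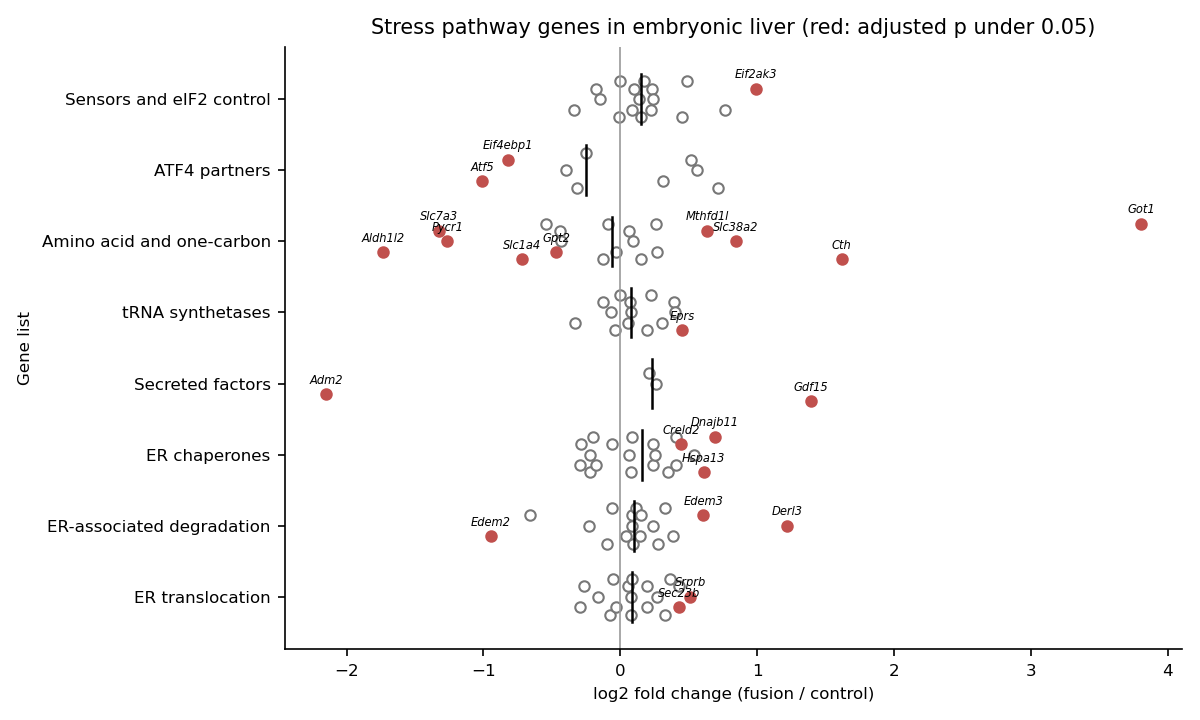
Log2 fold change (fusion over control, edgeR) of each tested gene of the 8 pathway lists in embryonic liver, 1 point per gene, with genes at an adjusted p under 0.05 in red and named and the median of each list as a black line. In this fit the 3 called chaperone genes and the 2 called translocation genes lie to the right of 0, and the called genes of the amino acid list lie on both sides.

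The summed level of the macrophage markers differed between the groups in these livers. Over 10 genes it was 1194 to 1348 CPM in control and 1016 to 1124 CPM in fusion livers, without overlap, and 0 of the 10 passed the test in edgeR, 2 of them at an unadjusted p under 0.05, with a median log2 fold change of -0.28. Of the hepatocyte markers 9 of 10 were in the table and 1, Apoa1, was lower in fusion livers, with a median log2 fold change of -0.32 over the 9 and a positive value in 1 of them. Of 8 fibroblast markers 2 were lower. Of all genes tested, 5.99% passed with fusion livers higher and 6.81% with them lower. Plasma cells and pancreatic acinar cells are both rich in ER chaperones. Of their marker genes, Jchain, Igkc, Cpa1, Cel, Prss2, Ctrb1 and Pnlip were not found by symbol in the embryo table. That table uses some older symbols and its lowest count sum per gene is 47, so this does not show that such cells were absent. The 5 other plasma cell genes summed to 92.3 to 120 CPM in control and 143 to 182 CPM in fusion livers, and 1 of them, Sdc1, which hepatocytes also express, was called higher. Their median log2 fold change was -0.09, with a positive value in 2 of the 5. Of 8 acinar genes 2 were in the table, Cela1, which was called higher, and Bhlha15, which did not pass. Of these 2, 1 had a positive log2 fold change. They summed to 29.7 to 41.8 CPM in control and 41.2 to 72.7 CPM in fusion livers. The part of these marker differences in the results was not tested, and in whole tissue fewer cells of a type and less RNA per cell cannot be told apart.

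As a description of likeness, the profiles of Atf4 and Hspa5 across the 9 livers were set against every tested gene by the root mean square difference of log2(CPM + 1), each centred on its mean. For Atf4, whose own spread was 0.22 on that scale, the nearest were Gemin2 (0.060), Akr1a1 (0.061) and Cpsf4 (0.066). For Hspa5, with a spread of 0.33, they were Fam204a (0.099), Psmd12 (0.10) and Nup37 (0.11). With 9 livers and 13316 genes, near profiles are found for many genes.

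The second comparison asked whether palbociclib changed these genes in FL8 tumours. No member passed the test: all 10 overlapped between the groups, 0 of 10 had an adjusted p under 0.05, and adjusted p ran from 0.953 to 0.987 (limma with a trend on log2(CPM + 1), adjusted over 12829 genes). Of all genes tested 0 (0%) passed. At an unadjusted p under 0.05 there were 0 of the 10 members and 586 of all genes (4.57%), and 0.935% of all genes did not overlap between groups. On the reads recovered from CPM, edgeR and voom called 0 genes (773 and 1216 at an unadjusted p under 0.05) and DESeq2 called 8 (0.0468%), of which 0 were members. The differences below are on the log2(CPM + 1) scale, palbociclib minus vehicle, and are to be read against the median of all genes, 0.14, which was 0.005 after TMM scaling.

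**Figure D4:**
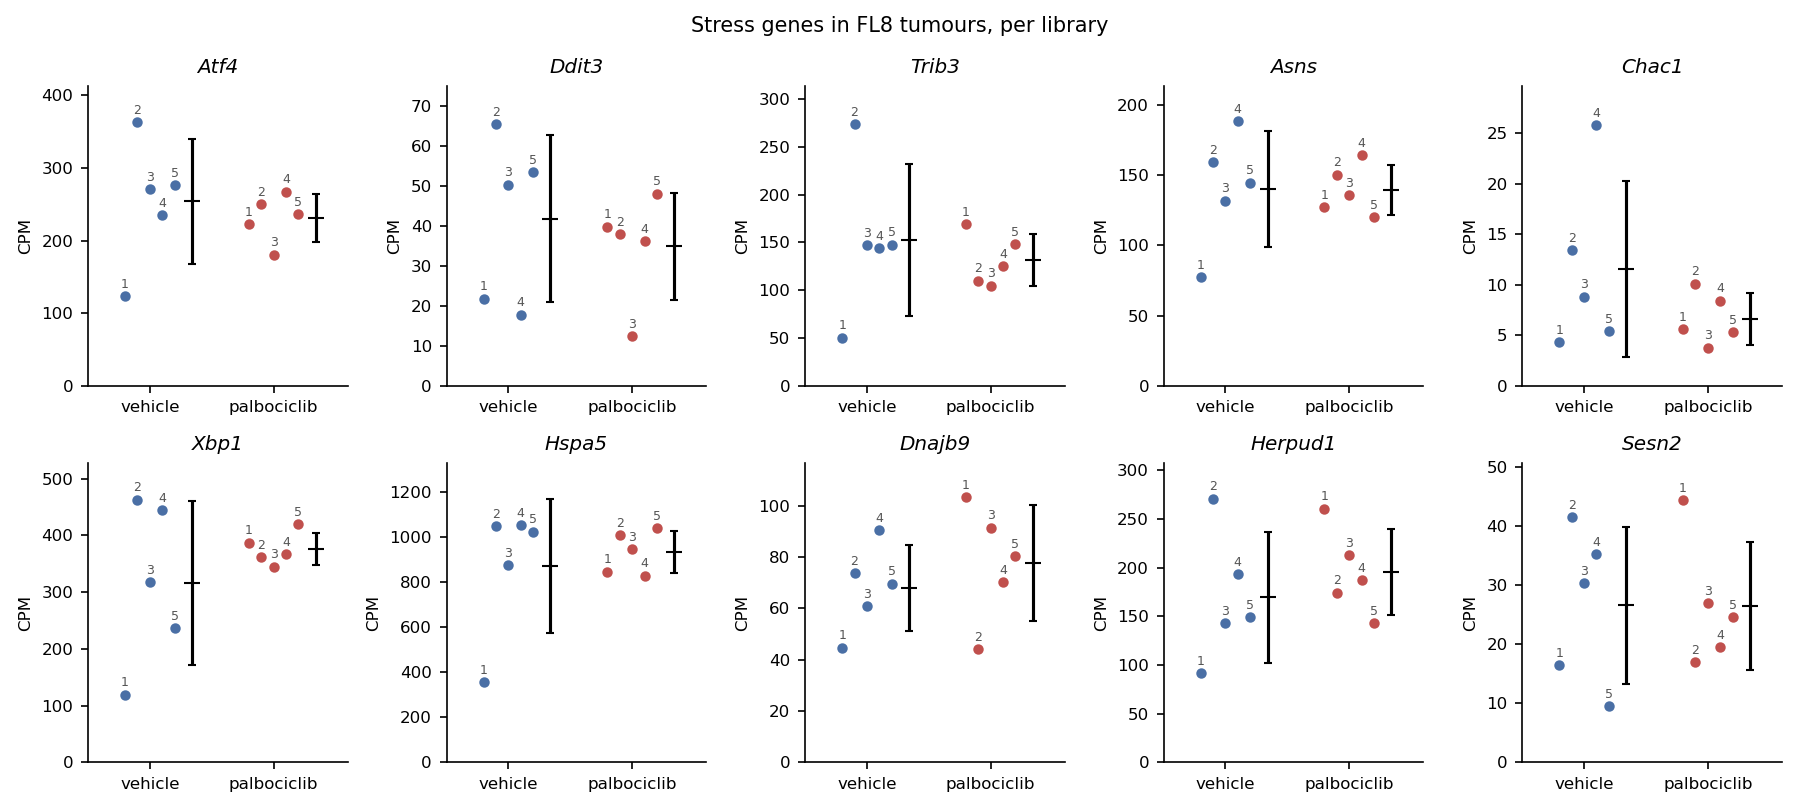
Levels of the 10 members in each FL8 tumour, in CPM as deposited, with vehicle tumours in blue and palbociclib tumours in red; digits are the tumour numbers and black bars the mean ± SD of a group. Vehicle 1 is the lowest vehicle tumour for 8 of the 10 genes, and the groups overlap for every gene.

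Hspa5 was at 355, 1049, 877, 1055 and 1026 CPM in vehicle 1 to 5 and at 848, 1009, 949, 829.5 and 1039.8 CPM in palbociclib 1 to 5. Vehicle 1 stood far below the other 9 tumours; with mitochondrial genes removed before scaling, its value was 666 CPM and the others lay between 852 and 1101 CPM. The difference was 0.20 (95% interval -0.46 to 0.86) as deposited and 0.05 without mitochondrial genes.

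Xbp1 stood at 119, 463, 317, 444 and 236 CPM in vehicle and at 387, 361, 345, 367 and 419.5 CPM in palbociclib tumours. Palbociclib tumours formed a narrow band inside the wide vehicle range. The difference was 0.40 (95% interval -0.28 to 1.08), and it was -0.10 when vehicle 1 and vehicle 5 were left out together. Dnajb9 was at 44.7 to 90.5 CPM (median 69.7) in vehicle and 44.0 to 103 CPM (median 80.3) in palbociclib tumours, a difference of 0.18 (95% interval -0.39 to 0.74). Herpud1 was at 91.6 to 271 CPM (median 149) and 143 to 261 CPM (median 188), a difference of 0.27 (95% interval -0.33 to 0.86).

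Atf4 was at 124, 363, 271, 235 and 276 CPM in vehicle and 222, 250.4, 181, 268 and 237 CPM in palbociclib tumours. As deposited, both extremes were vehicle tumours, and the difference was -0.06 (95% interval -0.64 to 0.52). With mitochondrial genes removed before scaling, vehicle 1 was at 232 CPM, and palbociclib 3 was the lowest tumour at 193 CPM. Ddit3 was at 21.8, 65.5, 50.3, 17.8 and 53.5 CPM in vehicle and 39.9, 38.0, 12.4, 36.2 and 48.1 CPM in palbociclib tumours. As deposited, the low tumours were vehicle 1, vehicle 4 and palbociclib 3. With mitochondrial genes removed before scaling, vehicle 1 was at 40.8 CPM, while vehicle 4 (18.6 CPM) and palbociclib 3 (13.2 CPM) remained low. The difference as deposited was -0.21 (95% interval -1.05 to 0.63), so that a halving is not excluded at this sample size.

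Trib3 was at 50.6, 274, 147, 144 and 148 CPM in vehicle and 169, 109.9, 105, 125 and 148 CPM in palbociclib tumours. Vehicle 2 was the highest and vehicle 1 the lowest, and the difference was -0.05 (95% interval -0.78 to 0.67). Chac1, a glutathione-degrading enzyme gene induced through ATF4 and CHOP, was at 4.34, 13.4, 8.83, 25.8 and 5.41 CPM in vehicle and at 5.62, 10.1, 3.78, 8.44 and 5.31 CPM in palbociclib tumours (chr2:119351229-119354381). Vehicle 4 and vehicle 2 were the highest, and the other 8 tumours lay between 3.78 and 10.1 CPM. The difference of -0.53 (95% interval -1.39 to 0.34, adjusted p = 0.953 in limma) was the largest among the members in either direction. It was -1.09 with vehicle 1 and vehicle 5 left out, with an adjusted p of 0.436 in limma. Both had the lowest Chac1 values of the vehicle tumours (4.34 and 5.41 CPM), so leaving them out enlarges the difference.

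Asns was at 77.1 to 188 CPM (median 144) in vehicle and 120.0 to 164 CPM (median 136) in palbociclib tumours, a difference of 0.04 (95% interval -0.49 to 0.57) that turned to -0.11 after TMM scaling. Sesn2 was at 9.47 to 41.5 CPM (median 30.4) and 16.9 to 44.4 CPM (median 24.6), a difference of 0.09 (95% interval -0.70 to 0.87) that was -0.06 after TMM scaling. An overlapping gene on the same strand, Gm12981, makes the Sesn2 counts uncertain.

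**Figure D5:**
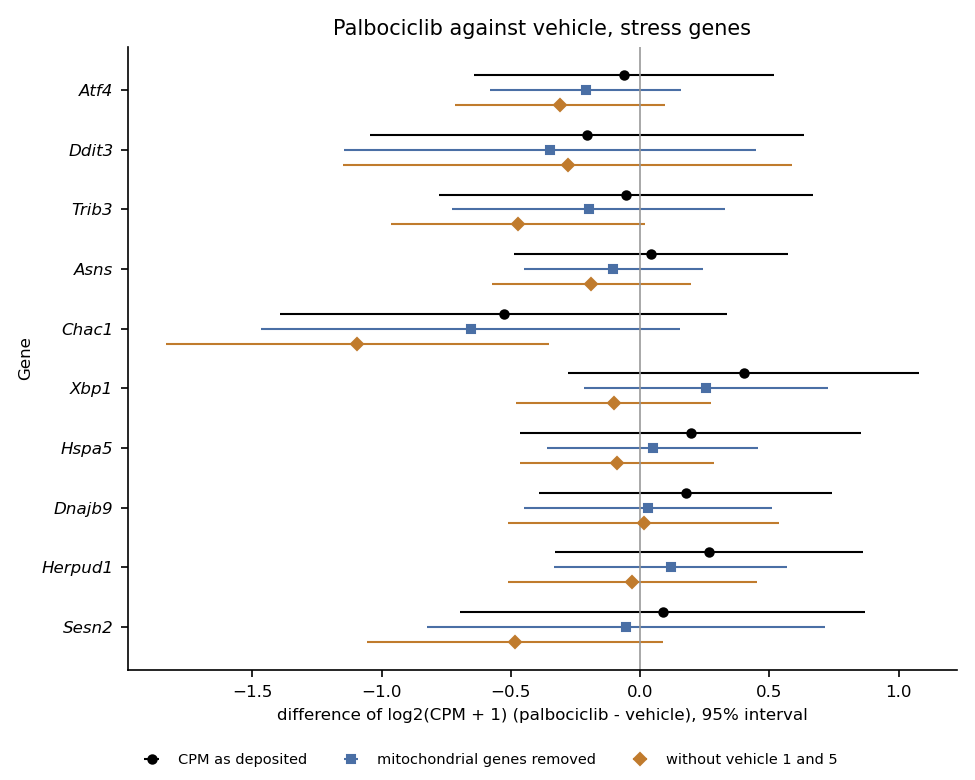
Difference of log2(CPM + 1) between palbociclib and vehicle tumours for each member, with 95% intervals from limma, on CPM as deposited (black), with mitochondrial genes removed (blue) and without vehicle 1 and vehicle 5 (orange). The intervals include 0 for all members on the first 2 scales, and in the third only that of Chac1 does not. Vehicle 1 and vehicle 5 had the lowest Chac1 values of the vehicle tumours.

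Per base of exon, Hspa5 led in the tumours, at 206 ± 70.5 RPKM in vehicle and 221 ± 22.2 RPKM in palbociclib tumours (SD, n = 5 each). In vehicle tumours it was followed by Atf4 (108 ± 36.7), Xbp1 (97.3 ± 44.4), Herpud1 (72.8 ± 28.8), Trib3 (71.8 ± 37.4) and Asns (51.3 ± 15.02), then by Dnajb9 (26.6 ± 6.60), Ddit3 (24.4 ± 12.2), Sesn2 (7.65 ± 3.82) and Chac1 (7.06 ± 5.32). The ranges of all neighbours in this order overlapped. In palbociclib tumours Hspa5 was clear of the next gene, Xbp1 (116 ± 8.80), and Asns (51.0 ± 6.53) was clear of Dnajb9 (30.5 ± 8.87). Trib3, which stood below Ddit3 in the livers, stood above it in both tumour groups; the 2 tables were scaled separately and come from different library preparations, so levels are compared only within a table.

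No gene of the 8 pathway lists passed the test in the tumours (0 of 120 list entries tested). Median differences were 0.26 for the 17 sensors and eIF2 genes, -0.28 for the 9 ATF4 partners, 0.30 for the 20 amino acid genes, 0.20 for the 14 tRNA synthetases, -0.47 for the 4 secreted factors, 0.34 for the 20 chaperones, 0.30 for the 18 degradation genes and 0.27 for the 18 translocation genes, against 0.14 over all genes. All 18 degradation genes, all 18 translocation genes and 19 of the 20 chaperones had a positive difference on this scale, where 68.8% of all genes did. With vehicle 1 and vehicle 5 left out, the 3 medians were 0.02, 0.11 and 0.19, against -0.05 over all genes.

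Named by size within each list, Mbtps1, the protease that cleaves ATF6, was at 51.0 ± 20.7 and 73.1 ± 14.3 CPM in vehicle and palbociclib tumours (SD, n = 5 each; difference 0.58). Ppp1r15a (GADD34), which lets phosphorylated eIF2 recover, was at 74.8 ± 46.5 and 41.8 ± 23.3 CPM (difference -0.86). Atf3, a stress transcription factor, was at 121 ± 73.3 and 85.7 ± 51.7 CPM (difference -0.59), and Atf5 at 1181 ± 534 and 1282 ± 133 CPM (difference 0.31). Gdf15 had a difference of -0.88, with 49.1 to 269 CPM in vehicle and 22.1 to 109.6 CPM in palbociclib tumours. Among metabolic genes, Gpt2, an alanine aminotransferase, had a difference of 0.65 and Slc7a11, the cystine transporter, one of -0.42. Iars (0.69) and Sars (-0.30) were the extremes of the tRNA synthetases. In the ER, the proline isomerase gene Ppib (0.64) and the oxidase gene Ero1a (-0.48) were the extremes of the folding list, and Derl3 (0.73) and Sec61g (0.63) had the largest differences in degradation and translocation. Adjusted p for these 13 genes was 0.953 or higher in limma.

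Erythroid and other blood markers varied among these tumours, which keep host blood and vessels. Their sum, of which 9 of 10 genes were in the files, was 1031 to 49035 CPM in vehicle and 1064 to 5519 CPM in palbociclib tumours. Macrophage markers summed to 2221 CPM in vehicle 1 and to 102 to 419 CPM in the other 9 tumours. Endothelial markers summed to 89.6 to 274 CPM in vehicle and 84.6 to 131 CPM in palbociclib tumours. Their part in the stress gene values was not tested.

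Across the 10 tumours the genes nearest in profile to Atf4 (own spread 0.39) were Foxa3 (0.11), Dapk2 (0.12) and Mfn1 (0.13). Those nearest to Hspa5 (0.45) were Atp13a1, Timm50 and Clpb (0.12 each). None of these 6 genes was among the 6 named for the livers.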

How the data were processed

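Embryo values are raw counts by gene symbol, as deposited; a further 9 columns of the same table rescale them and were left aside. Tumour values are CPM by Ensembl ID, as the authors deposited them, and 100% of the values were whole multiples of 1 read (tolerance 0.01 reads), so that reads were recovered for the alternatives. Per the submitters' processing notes, embryo data used mm10, STAR 2.5.1b and DESeq2, and tumour data mm10, cutadapt 2.10, HISAT2, featureCounts, DESeq2 and R 4.1.2; annotation and strand setting are not given in the sources used here. GENCODE M21 gave symbols for 17469 tumour IDs, gene positions (GRCm38) and exon lengths.

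Embryo counts were fitted with edgeR 4.0.16 (R 4.3.3; TMM, filterByExpr), and embryo levels are TMM-scaled CPM. Tumours were fitted with limma 3.58.1 on log2(CPM + 1), which understates changes of low genes, where a gene averaged 1 CPM or more. Alternatives used DESeq2 1.42.0, other scalings, filters, covariates and left-out libraries. P-values are two-sided with Benjamini-Hochberg adjustment over all genes tested, threshold 0.05. The fits were tested on simulated data. No 2 libraries of a group agreed within counting noise (lowest chi-square per degree of freedom 12.5).

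Members and lists were chosen with earlier results of these data known. Named genes are all members and, per list, up to 3 called genes per direction by adjusted p or, where none was called, the largest difference in each direction. Hsp90b1, Calr, Pdia4, P4hb, Pdia3 and Pdia6 were named after their values were seen. Genes nearest in profile are given for Atf4 and Hspa5; those for Ddit3 are not reported here. Embryo libraries were split at the largest gap in ribosomal protein share. A count of 3, the floor, is 0.0658 to 0.392 CPM in the embryo and 0.0695 to 1.01 CPM in the tumour libraries; it covers counting error only, since reads carry no molecular identifiers.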

Additional observations from a re-analysis of the deposited data

Results flagged for a closer look

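Among 38 groups of values screened, 3 held a library whose gap to the nearest other one exceeded the 95% limit of Dixon's test; chance alone flags about 1.9. Xbp1 was at 160.6 CPM in fusion 6, against 127 to 130.3 CPM in the other 3 fusion livers. Dnajb9 was at 37.2 CPM in the same liver, against 27.2 to 27.9 CPM. Fusion 6 is the deepest embryo library and the one with the lowest ribosomal protein share (6.19%), and it also had the highest Hspa5 (877 CPM) and the lowest Atf4 (323 CPM) and Trib3 (4.02 CPM) of all livers. Hspa5 was at 355 CPM in vehicle 1, against 877 to 1055 CPM in the other 4 vehicle tumours. In that library 46.6% of reads were mitochondrial, and with those genes removed its Hspa5 value was 666 CPM against 897 to 1101 CPM.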

How the results depend on the processing

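In the embryos 1704 genes and 2 members passed. With the ribosomal library set as a covariate 4345 genes and 4 members (Dnajb9, Hspa5, Trib3, Xbp1) passed, within the libraries of higher share 2589 genes and 4 members, and within the others 2950 genes and 2 members. In the covariate fit, where 32.6% of all genes passed, 4 of 17 sensor and eIF2 genes were higher and none lower. Of 14 tRNA synthetases 5 were higher, and of 18 translocation genes 5. Of 20 amino acid genes 4 were higher and 8 lower, and of 18 degradation genes 5 and 2. Of 4 secreted targets 2 were higher and 1 lower. A mean of at least 10 CPM left 1 member passing (Dnajb9; Trib3 and Sesn2 were not tested), and without fusion 6 and control 2 together, a choice made after seeing the data, 1 member passed (Trib3). Leaving out 1 liver gave 969 to 1581 genes (lowest without control 3, 987 without fusion 8, 1107 without fusion 7) and 1 to 3 members. Across these fits Trib3 lay between -1.10 and -0.75 and Dnajb9 between 0.53 and 0.73.

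Signs turned only for values that had not passed. For Ddit3 the embryo value was -0.0034 with sex as a covariate and -0.046 to 0.14 with 1 liver left out. For Sesn2 it was -0.10 within the libraries of higher share, -0.85 without fusion 6 and control 2, and -0.67 to 0.49 with 1 liver left out. Herpud1 was 0.039 without fusion 6 and control 2. In the tumours DESeq2 called 8 genes where the other fits called 0. Asns was -0.10 with edgeR, -0.11 with DESeq2, -0.065 with voom, -0.11 with TMM, -0.10 without mitochondrial genes and -0.19 without vehicle 1 and vehicle 5. For Sesn2 these values were -0.14, -0.15, -0.38, -0.057, -0.054 and -0.48. Hspa5 was -0.039 and Derl3 -0.044 with voom. Without vehicle 1 and vehicle 5, Hspa5 was -0.088, Xbp1 -0.10, Herpud1 -0.031 and Atf5 -0.051. With 1 tumour left out, Atf4 ran from -0.30 to 0.086, Trib3 from -0.40 to 0.20, Ddit3 from -0.46 to 0.12, Asns from -0.16 to 0.16, Hspa5 from -0.10 to 0.29, Sesn2 from -0.22 to 0.29 and Atf5 from -0.10 to 0.48. The cause of these changes was not tested.

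The replicate block, which pairs tumours by number, called 0 genes and 0 members (460 genes at an unadjusted p under 0.05). Correlations of same-numbered tumours ran from -0.32 to 0.002 and none matched best with its own number. No pairing by number was thus seen, but with 5 tumours a group this does not exclude one. Depth limits Sesn2 in the embryos, with 4 to 15 counts in 4 livers, and every low gene in vehicle 5, where 3 reads are 1.01 CPM. With 4 or 5 samples a group, the intervals of the tumour members reach past 0.5 log2 units in at least 1 direction.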
